A study of Mus musculus with 12 samples.

Results

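The basolateral membrane of a hepatocyte faces the blood of the liver sinusoids, and 9 genes for uptake carriers and efflux pumps of this membrane are described here in mouse liver cells. They were taken by name, with no threshold on a measured value, as Slc10a1, Slco1a1, Slco1a4, Slco1b2, Slco2b1, Slc22a7, Abcc3, Abcc4 and Abcc6, and 9 of 9 were found among the 53715 genes of the count table. The study followed the in vitro differentiation of hepatoblasts, the bipotential progenitors of hepatocytes and bile duct cells, by RNA sequencing of 3 groups with 4 biological replicates each. Hepatoblasts came from C57BL/6JOlaHsd embryos at E14.5, were isolated magnetically through the surface protein Dlk1, and were lysed without culture. Diff. hepatocytes were Dlk1-isolated E14.5 cells of the same strain after 4 days of culture in Differentiation media on fibronectin coated plates. Mature hepatocytes were obtained by collagenase perfusion of male C57BL/6JOlaHsd mice of 8 to 12 weeks and lysed after isolation. The labels name no genetic change in any group. The media held serum, insulin, transferrin and selenium, Matrigel and the glucocorticoid dexamethasone, while the other groups were lysed without culture. Hepatoblasts were prepared from pooled embryonic livers and the sex of the embryos was not given, so age and sex cannot be told apart between mature hepatocytes and the other groups. In the Diff. hepatocytes, differentiation, culture and the agents of the media cannot be told apart.

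Hepatocytes take up bile acids, bilirubin, hormone conjugates and drugs from sinusoidal blood and pass many of them on into bile at the opposite, canalicular membrane. Slc10a1 encodes Ntcp, the sodium-coupled carrier of conjugated bile acids, the Slco genes encode organic anion transporting polypeptides (Oatps), which work without sodium, and Slc22a7 encodes the organic anion transporter Oat2. The Abcc genes encode ATP-driven pumps of the same membrane, of which Mrp3 (Abcc3) and Mrp4 (Abcc4) move conjugates and bile acids back to blood and are known to rise in cholestasis, while Mrp6 (Abcc6) is needed for the release of ATP from hepatocytes and its loss causes ectopic mineralization.

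Replicates 1 to 4 of the hepatoblasts held 21523329, 25216977, 24688610 and 24472931 reads counted on genes. In Diff. hepatocytes the totals were 21411353, 22026087, 21974169 and 19581551, and in mature hepatocytes 20801286, 20043218, 22730818 and 23791477. Levels are given as CPM, counts scaled to a common library size, with the sizes set by TMM, a method that sets the scale by the bulk of genes, and means are given with the SD over 4 libraries. A count of 0 allows up to 3 counts, which is 0.0896 to 0.0994 CPM in a hepatoblast library, 0.129 to 0.148 CPM in a Diff. library and 0.175 to 0.206 CPM in a mature library. These limits and the counting intervals below cover counting error only. A gene was called higher or lower when edgeR's quasi-likelihood test over the 12 libraries gave an adjusted p under 0.01, with Benjamini-Hochberg adjustment over 17779 genes, and the log2 fold change was above 1 or below -1. Single genes were also put to an exact permutation test (two-sided, all 70 ways to split 8 libraries into 2 sets of 4), whose p cannot be under 0.0286.

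The groups were first set against markers of their labels. Dlk1, the protein used for the isolation, was at 3523 ± 759 CPM in hepatoblasts, at 94.2 ± 4.55 CPM in Diff. hepatocytes and at 4.19 ± 1.5 CPM in mature hepatocytes. Albumin (Alb) was at 37757 ± 8303 CPM in hepatoblasts, at 40226 ± 2957 CPM in Diff. hepatocytes and at 95187 ± 16527 CPM in mature hepatocytes. Cyp2e1, a cytochrome of adult hepatocytes, was at 2.82 ± 0.266 CPM in hepatoblasts and at 3.24 ± 0.790 CPM in Diff. hepatocytes against 6504 ± 2033 CPM in mature hepatocytes, so this adult marker was near its hepatoblast level in the cultured cells. Of the 8 hepatocyte markers, Fgb, Serpina1a, Apoa1 and Trf were called higher in Diff. hepatocytes than in hepatoblasts, beside 14.9% of all tested genes. Their log2 fold changes were 2.59, 1.59, 1.05 and 1.01. The other 4 markers of this list, Alb and Cyp2e1 included, were not called. The 5 hepatoblast markers together reached 41798, 59715, 67360 and 70025 CPM in hepatoblasts and still 37824, 41166, 44142 and 42949 CPM in Diff. hepatocytes, against 65.9 to 109 CPM in mature hepatocytes. Their most abundant gene was Afp in hepatoblasts and mature hepatocytes and H19 in Diff. hepatocytes.

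Uptake and efflux genes were mostly low in hepatoblasts and high in mature hepatocytes, with the Diff. hepatocytes in between for some genes and near the hepatoblasts for others. The exception was Abcc4, highest in Diff. hepatocytes and lowest in mature hepatocytes. Against hepatoblasts, which asks what differentiation in culture changed, 6 of the 9 genes were higher in Diff. hepatocytes, Slc10a1, Slco1a1, Slco1a4, Slco1b2, Abcc3 and Abcc4, beside 14.9% of all tested genes. Of the 9, 0 were called lower by edgeR's quasi-likelihood test, 0 were lower at an unadjusted p under 0.05 and 0 were called lower by DESeq2's Wald test, beside 14.0% of all tested genes. The median log2 fold change of the 9 was 2.58, and 2.52 over 8 with Slco1a4 set to the bound of its counting interval and Slc22a7 left out, beside -0.013 over all tested genes. The count of higher genes was 5 without hepatoblast replicate 2, 3 or 4 or Diff. replicate 1, 2 or 4, and 7 without Diff. replicate 3.

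In mature hepatocytes against hepatoblasts, which spans development to the adult liver, 8 of the 9 were higher, beside 20.1% of all tested genes, and 1, Abcc4, was lower, beside 24.7%. The median log2 fold change was 8.57 beside -0.15 over all tested genes. In Diff. hepatocytes against mature hepatocytes, which asks how close the cultured cells came to the adult level, 8 were lower, beside 15.6% of all tested genes, and Abcc4 was higher, beside 20.2%. The median was -3.85 beside 0.092 over all tested genes, and without Diff. replicate 1 the count of lower genes was 7. The comparisons share groups, so their counts are not independent of each other. All 9 passed the filter of more than 10 counts in any library, 5 of them in each of the 3 groups. Slco1a1, Slco1a4 and Slco2b1 passed it through Diff. and mature hepatocytes and Slc22a7 through mature hepatocytes alone, so that these genes had to differ from hepatoblasts, and Slc22a7 also from Diff. hepatocytes, to be tested, and the counts lend the list no support.

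**Figure D1:**
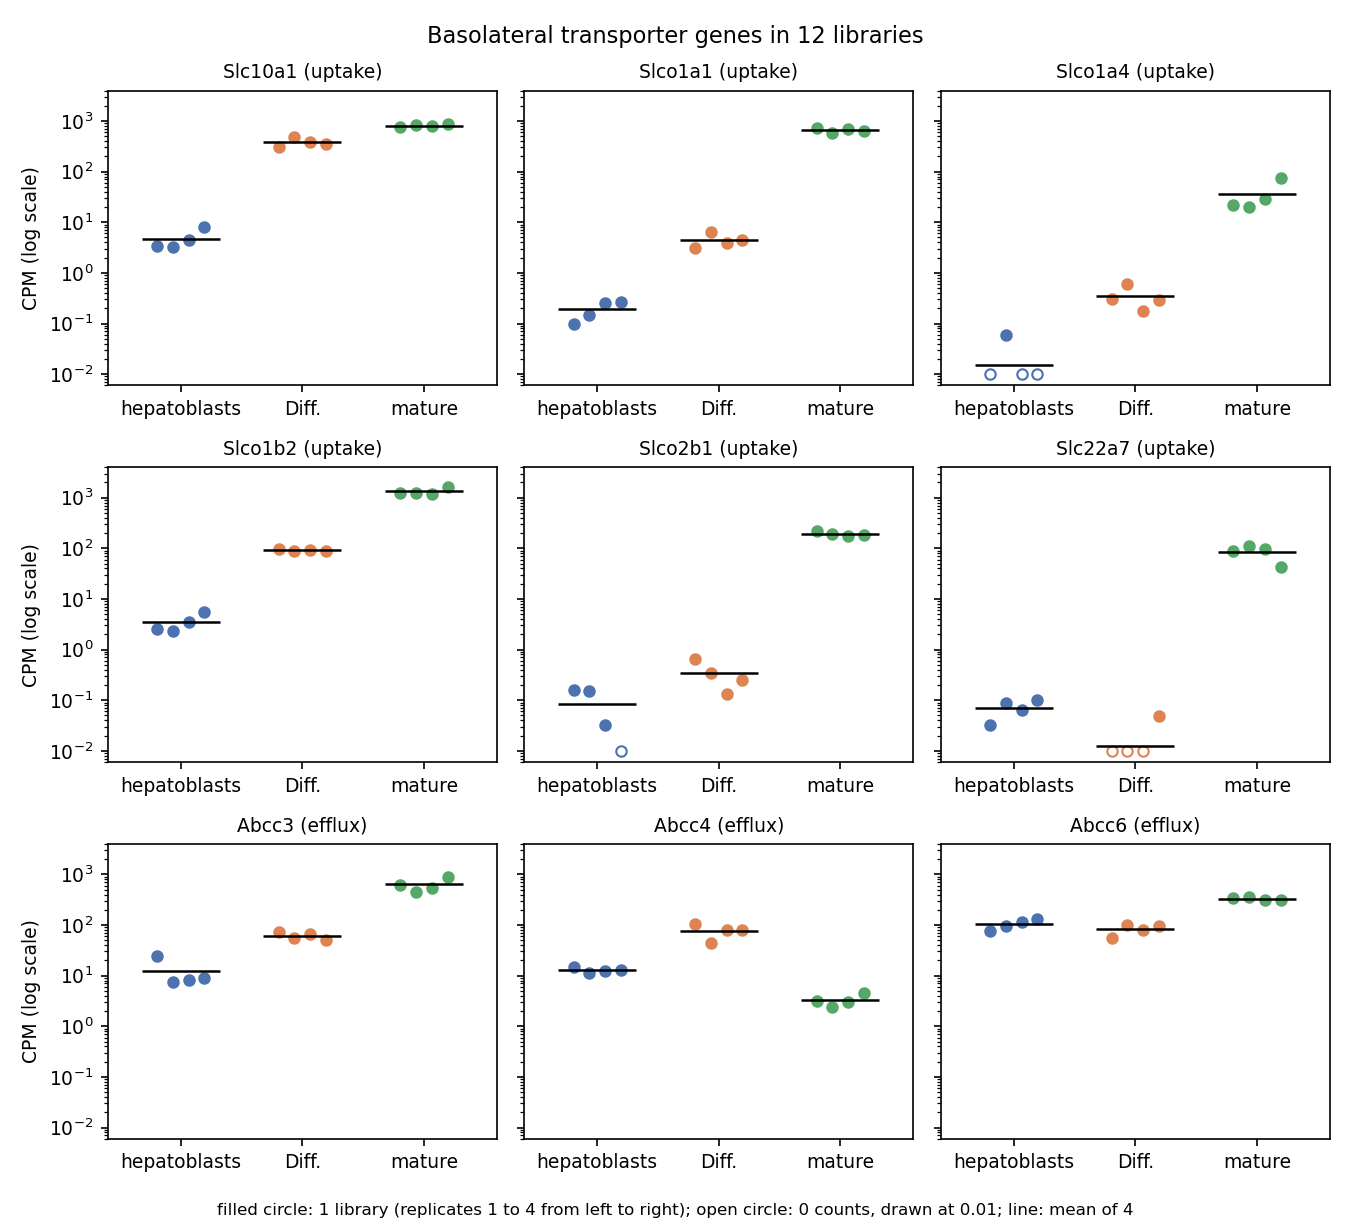
CPM of the 9 transporter genes on a log axis, with 1 point per library in the order of replicates 1 to 4, lines at group means, and open circles for 0 counts drawn at 0.01. Mature libraries lie highest for 8 genes, while Abcc4 is highest in Diff. hepatocytes, between 44.8 and 103 CPM, and lowest in mature hepatocytes, between 2.37 and 4.47 CPM.

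The scale matters for these groups, since the TMM factors were 1.23 to 1.44 in hepatoblasts, 1.03 to 1.08 in Diff. hepatocytes and 0.677 to 0.778 in mature hepatocytes. With library totals in place of TMM the median log2 fold change of all genes shifted by -0.32 for Diff. hepatocytes against hepatoblasts, -0.847 for mature hepatocytes against hepatoblasts and 0.527 for Diff. against mature hepatocytes. With totals that leave out the 50 most abundant genes the shifts were -0.109, -0.666 and 0.556. No transporter gene changed direction under either scale. In bulk RNA, fewer cells of a type and less RNA of a gene per cell cannot be told apart.

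Slc10a1 (ENSMUSG00000021135), the gene for Ntcp, lies on the reverse strand of chromosome 12 from 80953183 to 80968705 in build GRCm38. Its levels were 3.32, 3.22, 4.44 and 8.05 CPM in the hepatoblasts, 303, 489, 389 and 352 CPM in Diff. hepatocytes, and 754, 818, 794 and 883 CPM in mature hepatocytes. Every Diff. library was far above every hepatoblast library and below every mature library, and replicate 4 was the highest of the hepatoblasts. Slc10a1 rose in Diff. hepatocytes with a log2 fold change of 6.33 (SE 0.295, edgeR quasi-likelihood, Benjamini-Hochberg adjusted p = 2.27e-09, higher in 4 of 4 libraries), a fold of 80.6. In mature hepatocytes the log2 fold change against hepatoblasts was 7.42 (SE 0.309, edgeR quasi-likelihood, Benjamini-Hochberg adjusted p = 1.97e-10, higher in 4 of 4 libraries). The Diff. mean of 383 ± 78.7 CPM was thus 47.2% of the mature mean of 812 ± 54.2 CPM, the largest share of any of the 8 genes that were lower in Diff. than in mature hepatocytes. That difference had a log2 fold change of -1.08 (SE 0.232, edgeR quasi-likelihood, Benjamini-Hochberg adjusted p = 0.00108, lower in 4 of 4 libraries), close to the threshold of 1. It was not called without Diff. replicate 1 (-0.99), with at least 10 counts required in every library (-0.98), or with the threshold inside the test of glmTreat (-1.08) or DESeq2 (-1.07). Under library totals it was -0.56 and not called, and relative to the shift of all genes it was -1.08. Under totals without the 50 most abundant genes it was -0.53 and not called, and -1.08 relative to that shift.

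Slco1b2 (ENSMUSG00000030236) encodes Oatp1b2, a carrier of bile acids, bilirubin and drugs that is made mainly in liver, and is on the forward strand of chromosome 6 from 141629518 to 141686646. Its levels were 2.58, 2.33, 3.53 and 5.63 CPM in the hepatoblasts, 96.8, 87.0, 94.3 and 90.4 CPM in Diff. hepatocytes, and 1265, 1248, 1179.7 and 1629 CPM in mature hepatocytes. The groups lay well apart, the Diff. libraries were close to each other, and replicate 4 was highest among hepatoblasts and among mature hepatocytes. Slco1b2 rose in Diff. hepatocytes with a log2 fold change of 4.71 (SE 0.242, edgeR quasi-likelihood, Benjamini-Hochberg adjusted p = 5.03e-09, higher in 4 of 4 libraries). Against mature hepatocytes the Diff. mean of 92.1 ± 4.33 CPM was 6.92% of 1331 ± 202 CPM (log2 fold change -3.85, SE 0.224, edgeR quasi-likelihood, Benjamini-Hochberg adjusted p = 8.43e-09, lower in 4 of 4 libraries). Slc10a1 and Slco1b2 had thus both risen in culture, with Slc10a1 nearer to its mature level than Slco1b2 to its own. The difference between these shares was not tested. The log2 fold change of Slco1b2 in mature hepatocytes against hepatoblasts was 8.57 (SE 0.282, edgeR quasi-likelihood, Benjamini-Hochberg adjusted p = 2.26e-11, higher in 4 of 4 libraries).

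The hepatoblast library with the most Slc10a1 and Slco1b2, replicate 4, also had the highest sums of hepatocyte and of hepatoblast markers, while the adult marker Cyp2e1 was lowest there (2.52 CPM against 2.68 to 3.05 CPM). The summed level of the 8 hepatocyte markers, most of it Alb and with none at 0, was 38266, 48912, 56959 and 64437 CPM in replicates 1 to 4. In Diff. hepatocytes the sum was 65983, 69974, 72323 and 74126 CPM, and in mature hepatocytes 138404, 122545, 135454 and 171151 CPM. The sum of 5 hepatoblast markers, led by Afp with none at 0, was 41798, 59715, 67360 and 70025 CPM in hepatoblast replicates 1 to 4. The part of cell content in the levels of the transporter genes was not tested.

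Slco1a1 (ENSMUSG00000041698) encodes Oatp1a1, a carrier of bile acids and steroid conjugates known to be higher in male than in female mouse liver, and lies on the reverse strand of chromosome 6 from 141907282 to 141946962. Its levels were 0.0967, 0.149, 0.259 and 0.265 CPM in the hepatoblasts, from 3, 5, 8 and 8 counts, 3.11, 6.41, 3.95 and 4.49 CPM in Diff. hepatocytes, and 720.0, 581, 705 and 635 CPM in mature hepatocytes. No groups overlapped, and the Diff. libraries lay between the others but far closer to the hepatoblasts. Slco1a1 rose in Diff. hepatocytes with a log2 fold change of 4.51 (SE 0.293, edgeR quasi-likelihood, Benjamini-Hochberg adjusted p = 3.72e-08, higher in 4 of 4 libraries). Even so the Diff. mean of 4.49 ± 1.40 CPM was 0.680% of the mature mean of 660.5 ± 64.4 CPM (log2 fold change -7.20, SE 0.227, edgeR quasi-likelihood, Benjamini-Hochberg adjusted p = 2.68e-11, lower in 4 of 4 libraries). The log2 fold change in mature hepatocytes against hepatoblasts, 11.71 (SE 0.294, edgeR quasi-likelihood, Benjamini-Hochberg adjusted p = 2.82e-12, higher in 4 of 4 libraries), was the highest among the members with more than 3 counts in a library of each group. The mature mice were all male.

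Slco1a4 (ENSMUSG00000030237) encodes Oatp1a4, a related carrier of bile acids and cardiac glycosides known to be higher in female mouse liver, and lies on the reverse strand of chromosome 6 from 141805440 to 141856199. Its counts were 0, 2, 0 and 0 in hepatoblasts, and its levels were 0.303, 0.603, 0.178 and 0.296 CPM in Diff. hepatocytes, from 7, 14, 4 and 6 counts, and 22.4, 20.3, 28.7 and 74.3 CPM in mature hepatocytes. Hepatoblasts were at the limit of detection, Diff. libraries were low, mature replicate 4 was far above the other mature libraries, and no groups overlapped. The 31 counts of the Diff. libraries against 2 of the hepatoblasts gave a ratio of 21.8 after scaling, with a 95% counting interval of 5.55 to 188. Slco1a4 passed as higher in Diff. hepatocytes (SE of the log2 fold change 1.17, edgeR quasi-likelihood, Benjamini-Hochberg adjusted p = 0.00926, higher in 4 of 4 libraries), with a fitted log2 fold change of 4.05. The call was lost without hepatoblast replicate 1 (3.73), 2 (5.97), 3 (3.72) or 4 (3.73), without Diff. replicate 1 (4.11), 2 (3.62) or 4 (4.12), and with the threshold inside the test of glmTreat (4.05) or DESeq2 (4.45). The part of depth in these lost calls was not tested.

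Mature hepatocytes had 2331 counts of Slco1a4 in all, a ratio to hepatoblasts of 2308 with a 95% counting interval of 638 to 19069. The fitted log2 fold change in this comparison was 10.74, with 12.65 without hepatoblast replicate 2 and 10.13 without mature replicate 4. The Diff. mean of 0.345 ± 0.181 CPM was 0.947% of the mature mean of 36.4 ± 25.5 CPM. The log2 fold change of Slco1a4 in Diff. against mature hepatocytes was -6.69 (SE 0.534, edgeR quasi-likelihood, Benjamini-Hochberg adjusted p = 1.56e-07, lower in 4 of 4 libraries), and -6.08 without mature replicate 4. Slco1a1 and Slco1a4 are near copies of each other in parts, and their separate counts are uncertain to that extent. Of the 75-base stretches of their transcripts, the read length, 1.08% of those of Slco1a1 and 1.03% of those of Slco1a4 also occur in another gene.

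Slco1b2, Slco1a4 and Slco1a1 belong to a cluster of 9 annotated genes between the start of Slco1c1 at 141524368 and the end of Slco1a5 at 142322981 on chromosome 6. Iapp, the gene for islet amyloid polypeptide, lies within the span of Slco1a5. The neighbours Slco1a5, Slco1a6 and the predicted gene Gm5724 had at most 1 count in a library, Iapp at most 3, and Slco1c1, a thyroid hormone carrier of brain vessels, at most 6, so none of these 5 was tested. The predicted gene Gm6614, next to Slco1a1, was at 1.95, 0.474, 2.49 and 2.76 CPM in Diff. hepatocytes and at 0.343, 0.642, 0.292 and 0.310 CPM in mature hepatocytes, with 1 count in the 4 hepatoblast libraries together. Gm6614 was thus highest in 3 Diff. libraries, and Diff. replicate 2 lay within the mature range. Gm6614 had at most 56 counts in a Diff. library and at most 10 in a mature library, so it passed the filter through Diff. hepatocytes alone and had to be high there to be tested. Its calls are a description. Slco1a1, Slco1a4 and Gm6614 had 10 counts or fewer in each hepatoblast library, so they had to be higher elsewhere to be tested. The counts of cluster genes called against hepatoblasts therefore lend the cluster no support. Of the 4 tested genes of the cluster, 4 were higher in Diff. hepatocytes than in hepatoblasts (median log2 fold change 4.61), beside 14.9% of all tested genes, and 4 were higher in mature hepatocytes than in hepatoblasts, beside 20.1% (9.65, or 8.94 with Slco1a4 and Gm6614 at the bounds of their counting intervals). Against mature hepatocytes, Slco1b2, Slco1a4 and Slco1a1 were lower in Diff. hepatocytes, beside 15.6%, and Gm6614 was higher, beside 20.2% (median -5.27).

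**Figure D2:**
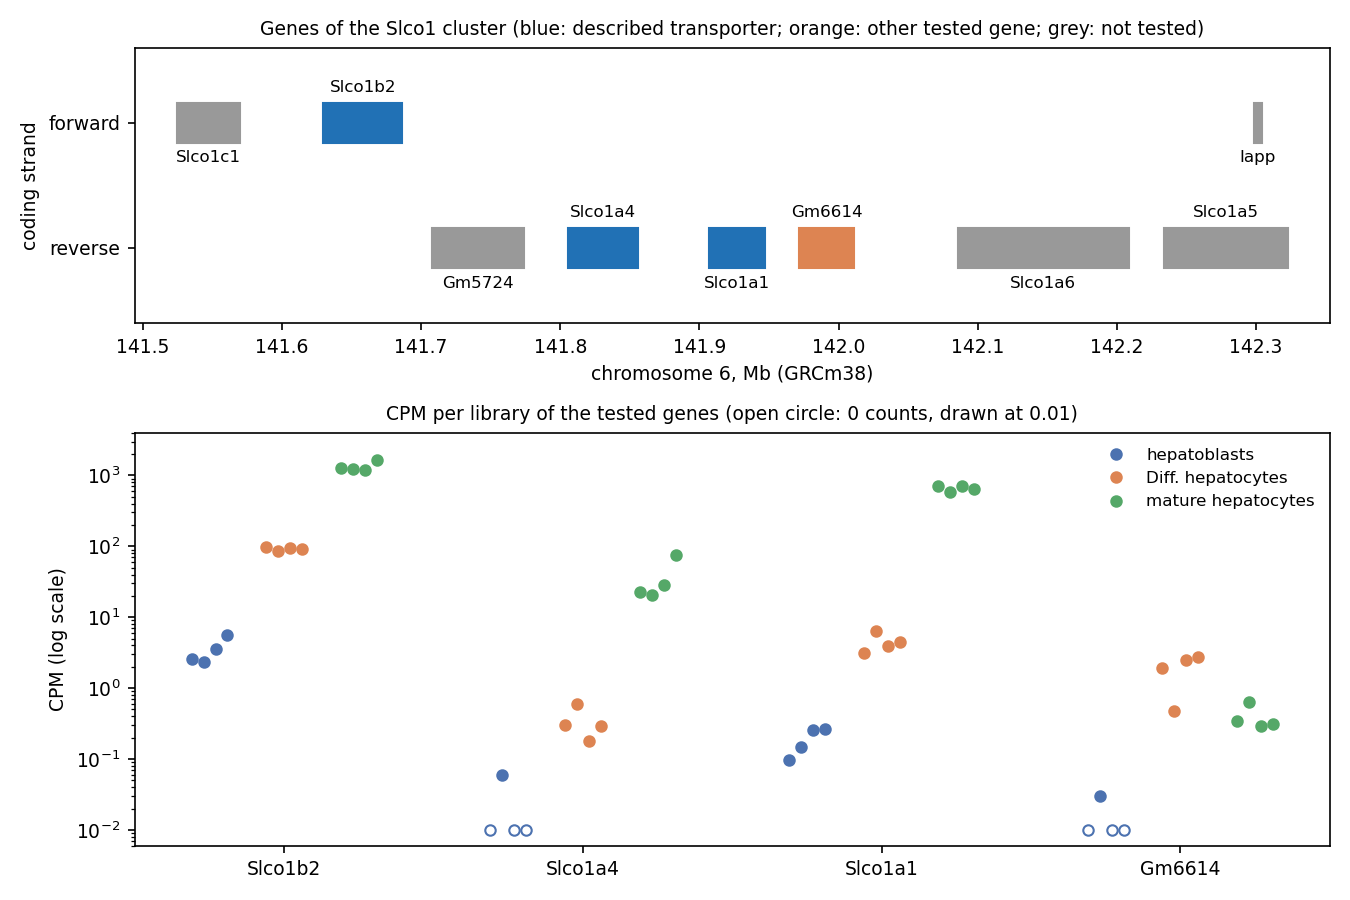
Map of the Slco1 cluster on chromosome 6 of GRCm38, in Mb by coding strand, above the CPM of its 4 tested genes on a log axis with 1 point per library and open circles for 0 counts drawn at 0.01. Slco1b2, Slco1a4 and Slco1a1 are highest in mature libraries, while Gm6614 reaches 2.76 CPM in Diff. hepatocytes and at most 0.642 CPM in mature hepatocytes.

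Slco2b1 (ENSMUSG00000030737) encodes Oatp2b1, a carrier of steroid sulfates and drugs, and lies on the reverse strand of chromosome 7 from 99657804 to 99711340. Its levels were 0.161, 0.149, 0.0324 and 0 CPM in the hepatoblasts, from 5, 5, 1 and 0 counts, 0.649, 0.344, 0.133 and 0.247 CPM in Diff. hepatocytes, from 15, 8, 3 and 5 counts, and 219.8, 192, 174 and 184 CPM in mature hepatocytes. Slco2b1 was near the limit of detection in hepatoblasts and Diff. hepatocytes, which overlapped, and abundant in all mature libraries. In Diff. hepatocytes against hepatoblasts its log2 fold change of 1.92 did not pass (SE 0.596, edgeR quasi-likelihood, Benjamini-Hochberg adjusted p = 0.0135, with 3 of 4 Diff. libraries above all hepatoblast ones), and the exact permutation p was 0.0857. It passed without hepatoblast replicate 1 (2.36) or Diff. replicate 3 (2.19), by DESeq2's Wald test (1.99), and with no filter beyond 1 count (1.90). A p that misses the threshold does not show that values did not differ. The Diff. mean of 0.343 ± 0.221 CPM was 0.178% of the mature mean of 192 ± 19.7 CPM (log2 fold change -9.09, SE 0.309, edgeR quasi-likelihood, Benjamini-Hochberg adjusted p = 5.6e-11, lower in 4 of 4 libraries). In mature hepatocytes against hepatoblasts the log2 fold change of Slco2b1 was 11.02 (SE 0.348, edgeR quasi-likelihood, Benjamini-Hochberg adjusted p = 1.58e-11, higher in 4 of 4 libraries). Its exons share 471 bases with the antisense gene Gm15635, which had at most 62 counts in a library, and 78 bases with the antisense gene Gm34280, with at most 13. The strand setting of the counting is not stated, so reads of those bases cannot be told apart.

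Slc22a7 (ENSMUSG00000067144) encodes Oat2, a carrier of organic anions and nucleobases, and lies on the reverse strand of chromosome 17 from 46432183 to 46438457. It had 1, 3, 2 and 3 counts in hepatoblasts and 0, 0, 0 and 1 counts in Diff. hepatocytes, and reached 89.6, 112, 95.8 and 42.1 CPM in mature hepatocytes. It was at or under the limit of detection in every library of hepatoblasts and Diff. hepatocytes, so no fold is given between those groups, which overlapped, and mature replicate 4 was the lowest of its group. The 5372 counts of the mature libraries against 9 of the hepatoblasts gave a ratio of 1182 (95% counting interval 622 to 2586). The ratio of mature to Diff. hepatocytes was 7553 from 5372 counts against 1, with a 95% counting interval of 1355 to 298393. Diff. replicate 4 held that 1 count, and the fitted log2 fold change in Diff. against mature hepatocytes was -12.32 with it and -13.96 without that library. Slc22a7 passed the filter through mature hepatocytes alone and had to be high there to be tested, so its calls as higher in that group are a description. Of the 6 uptake genes, then, Slc22a7, Slco2b1 and Slco1a4 were close to the limit of detection after 4 days in culture, with 15 counts or fewer in each Diff. library, while Slc10a1, Slco1b2 and, at a lower level, Slco1a1 were above it.

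Among the pumps, Abcc3 (ENSMUSG00000020865), the gene for Mrp3, lies on the reverse strand of chromosome 11 from 94343295 to 94392997. Its levels were 24.0, 7.49, 8.10 and 9.08 CPM in the hepatoblasts, 72.6, 55.7, 67.8 and 49.6 CPM in Diff. hepatocytes, and 629, 455, 549 and 901 CPM in mature hepatocytes. Hepatoblast replicate 1 stood apart from the other hepatoblasts, mature replicate 4 was the highest library, and the groups did not overlap. Abcc3 rose in Diff. hepatocytes with a log2 fold change of 2.34 (SE 0.349, edgeR quasi-likelihood, Benjamini-Hochberg adjusted p = 7.16e-05, higher in 4 of 4 libraries). In mature hepatocytes the log2 fold change against hepatoblasts was 5.70 (SE 0.401, edgeR quasi-likelihood, Benjamini-Hochberg adjusted p = 2.65e-08, higher in 4 of 4 libraries). Without hepatoblast replicate 1 these log2 fold changes were 2.91 and 6.26. The Diff. mean of 61.4 ± 10.6 CPM was 9.70% of the mature mean of 633 ± 192 CPM (log2 fold change -3.37, SE 0.358, edgeR quasi-likelihood, Benjamini-Hochberg adjusted p = 2.4e-06, lower in 4 of 4 libraries).

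The hepatoblast library with the highest Abcc3 level, replicate 1, also had the highest sums of blood cell markers. The summed level of 9 erythroid markers, led by Hbb-bs with none at 0, was 2804, 569.6, 468 and 342 CPM in hepatoblast replicates 1 to 4. The sum of 10 macrophage markers, led by Cd5l or, in replicate 2, Marco, with none at 0, was 405, 95.4, 118 and 113 CPM. The sum of 6 neutrophil and mast cell markers, led by Mpo with none at 0, was 418, 46.4, 29.5 and 30.3 CPM. Replicate 1 stood far above the others for each list, as it did for Abcc3. In Diff. hepatocytes the erythroid sum was 27.2, 15.1, 7.37 and 7.44 CPM, the macrophage sum 211, 99.4, 30.3 and 48.2 CPM, and the neutrophil and mast cell sum 97.7, 54.97, 6.04 and 18.5 CPM, with Cpa3 or Elane at 0 in replicates 2, 3 and 4. In mature hepatocytes Gata1 was at 0 in each library and Alas2 gave most of the erythroid sum of 135 to 185 CPM. The macrophage sum there was 153 to 292 CPM with Clec4f as the most abundant gene, and the neutrophil and mast cell sum was 4.49 to 6.79 CPM with Cpa3 at 0. The part of these cells in the Abcc3 level was not tested.

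Abcc4 (ENSMUSG00000032849), the gene for Mrp4, which pumps bile acids, cyclic nucleotides and steroid sulfates, lies on the reverse strand of chromosome 14 from 118482692 to 118706219. Its levels were 14.9, 11.5, 12.2 and 13.1 CPM in the hepatoblasts, 103, 44.8, 79.4 and 80.9 CPM in Diff. hepatocytes, and 3.09, 2.37, 3.03 and 4.47 CPM in mature hepatocytes. All Diff. libraries were above all hepatoblasts and all mature libraries were below them, an order that no other of the 9 genes had, and Diff. replicate 1 was high and replicate 2 low within their group. Abcc4 rose in Diff. hepatocytes with a log2 fold change of 2.58 (SE 0.223, edgeR quasi-likelihood, Benjamini-Hochberg adjusted p = 4.93e-07, higher in 4 of 4 libraries). In mature hepatocytes against hepatoblasts Abcc4 fell, with a log2 fold change of -1.99 (SE 0.248, edgeR quasi-likelihood, Benjamini-Hochberg adjusted p = 7.54e-06, lower in 4 of 4 libraries). The Diff. mean of 77.1 ± 24.1 CPM against the mature mean of 3.24 ± 0.881 CPM was a fold of 23.7 (log2 fold change 4.57, SE 0.259, edgeR quasi-likelihood, Benjamini-Hochberg adjusted p = 6.52e-09, higher in 4 of 4 libraries).

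Sums of bile duct and mesenchymal markers also reached their highest values in Diff. hepatocytes. The 8 bile duct markers summed to 253, 103, 135 and 115 CPM in Diff. replicates 1 to 4, with Krt7 the most abundant gene in replicate 1, Krt19 in the others, and Cftr at 0 in replicates 3 and 4. Their sum was 29.3, 33.2, 39.1 and 37.7 CPM in hepatoblasts and 66.6, 59.7, 52.8 and 37.6 CPM in mature hepatocytes. The 8 mesenchymal markers, led by Col1a1 with none at 0, summed to 2882, 1352, 1918 and 1138 CPM in Diff. hepatocytes. Their sum was 647, 714, 1263 and 867.9 CPM in hepatoblasts and 19.6, 29.1, 37.3 and 22.6 CPM in mature hepatocytes. Diff. replicate 1 was the highest Diff. library for both sums and for Abcc4. The part of these cells in the Abcc4 level was not tested.

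The marker lists are given by their counts of called genes, beside the shares of all genes given above. In Diff. hepatocytes against hepatoblasts, 9 of 9 erythroid, 6 of 8 endothelial, 3 of 10 macrophage (Marco, Cd5l, Clec4f), 3 of 6 neutrophil and mast cell (Elane, Mpo, Kit) and 4 of 5 hepatoblast markers (Dlk1, Gpc3, Igf2, Afp) were lower. Higher were 4 of 8 hepatocyte (Fgb, Serpina1a, Apoa1, Trf), 4 of 7 bile duct (Krt19, Krt7, Epcam, Cldn7) and 3 of 8 mesenchymal markers (Acta2, Des, Col1a1). In mature hepatocytes against hepatoblasts 7 of 8 hepatocyte and 4 of 8 endothelial markers (Kdr, Oit3, Stab2, Tek) were higher, as was 1 marker each of the erythroid (Alas2), macrophage (Clec4f), mesenchymal (Lrat) and bile duct lists (Spp1). Lower were 5 of 5 hepatoblast, 8 of 9 erythroid, 5 of 6 neutrophil and mast cell (Mpo, Elane, Cpa3, S100a9, S100a8), 7 of 8 mesenchymal, 2 of 7 bile duct (Cldn7, Epcam) and 1 of 10 macrophage markers (Marco). In Diff. against mature hepatocytes 5 of 5 hepatoblast, 7 of 8 mesenchymal, 4 of 7 bile duct and 2 of 6 neutrophil and mast cell markers were higher. In that comparison 8 of 8 endothelial, 4 of 8 hepatocyte, 2 of 10 macrophage, 1 of 9 erythroid and 1 of 8 mesenchymal markers were lower. Markers with 10 counts or fewer in every library of a group, among them Cpa3, Mpo, Elane, S100a8, S100a9 and Epcam in mature hepatocytes, had to be higher elsewhere to be tested, so their calls against that group are a description. Endothelial markers, led mostly by Stab2, summed to 140, 64.2, 41.3 and 35.8 CPM in the hepatoblasts, 5.37 to 11.4 CPM in Diff. hepatocytes and 114 to 218 CPM in mature hepatocytes. Megakaryocyte markers summed to 12.7 to 56.4 CPM in the hepatoblasts, 20.3 to 64.3 CPM in Diff. hepatocytes and 3.23 to 5.01 CPM in mature hepatocytes, where 5 of 5 were lower than in either other group.

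Abcc6 (ENSMUSG00000030834), the gene for Mrp6, lies on the reverse strand of chromosome 7 from 45967555 to 46030302. Its levels were 76.6, 96.4, 113 and 131 CPM in the hepatoblasts, 56.3, 102, 80.8 and 97.6 CPM in Diff. hepatocytes, and 343, 358, 312 and 319 CPM in mature hepatocytes. Hepatoblasts and Diff. hepatocytes overlapped and the mature libraries were all above them, and replicate 1 was the lowest library among hepatoblasts and among Diff. hepatocytes, as it was for the hepatocyte markers. In Diff. hepatocytes against hepatoblasts the log2 fold change was -0.31 and did not pass (SE 0.184, edgeR quasi-likelihood, Benjamini-Hochberg adjusted p = 0.162, with 1 of 4 Diff. libraries below all hepatoblast ones), and the exact permutation p was 0.286. Under library totals all 4 Diff. libraries were below the hepatoblasts (exact permutation p = 0.0286), and the log2 fold change of -0.62 was -0.30 relative to the shift of all genes. In mature hepatocytes Abcc6 rose against hepatoblasts with a log2 fold change of 1.67 (SE 0.188, edgeR quasi-likelihood, Benjamini-Hochberg adjusted p = 2.77e-06, higher in 4 of 4 libraries). Under library totals that change was 0.84 and not called, or 1.69 relative to the shift of all genes. The Diff. mean of 84.1 ± 20.6 CPM was 25.3% of the mature mean of 333 ± 21.5 CPM (log2 fold change -1.99, SE 0.190, edgeR quasi-likelihood, Benjamini-Hochberg adjusted p = 8.93e-07, lower in 4 of 4 libraries).

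The order of the genes within a group was taken per length, as CPM per kb of exon. In hepatoblasts Abcc6 led with 18.2 ± 4.08 CPM per kb, and Slc10a1 at 2.16 ± 1.03, Abcc3 at 2.14 ± 1.39 and Abcc4 at 2.02 ± 0.231 CPM per kb overlapped. Slco1b2 followed at 0.714 ± 0.305 CPM per kb, and Slco1a1, Slc22a7, Slco2b1 and Slco1a4 were at 0.0365 CPM per kb or less and overlapped with their neighbours in the order. In Diff. hepatocytes Slc10a1 led with 174 ± 35.8 CPM per kb. Slco1b2 at 18.7 ± 0.879, Abcc6 at 14.7 ± 3.61, Abcc4 at 12.1 ± 3.77 and Abcc3 at 10.8 ± 1.86 CPM per kb each overlapped with the next. Slco1a1 was at 0.851 ± 0.265 CPM per kb, and Slco2b1, Slco1a4 and Slc22a7 were at 0.0576 CPM per kb or less.

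In mature hepatocytes Slc10a1 led again, at 369 ± 24.6 CPM per kb, above Slco1b2 at 269.9 ± 41.1 CPM per kb, with no overlap. Slco1a1 at 125 ± 12.2 and Abcc3 at 111 ± 33.7 CPM per kb overlapped, Abcc6 followed at 58.2 ± 3.76 CPM per kb, and Slc22a7 at 40.4 ± 14.3 and Slco2b1 at 32.3 ± 3.31 CPM per kb overlapped. Slco1a4 was at 5.68 ± 3.98 and Abcc4, last in this group, at 0.507 ± 0.138 CPM per kb. With the longest coding transcript as the length, an alternative chosen after seeing the data, Slc10a1 and Slco1b2 overlapped in mature hepatocytes, at means of 464.5 and 402 CPM per kb, Slco1b2 no longer overlapped with Abcc6 in Diff. hepatocytes, and Slco2b1 changed places with Slc22a7 in mature and with Slco1a4 in Diff. hepatocytes.

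Summed per length, the 9 genes came to 22.0, 22.0, 25.9 and 31.5 CPM per kb in hepatoblasts, 197, 276, 235 and 218 CPM per kb in Diff. hepatocytes, and 990.0, 967, 965 and 1129.6 CPM per kb in mature hepatocytes. The 3 groups did not overlap, and mature replicate 4 stood above its group. The balance of uptake and efflux set the hepatoblasts apart from the other groups, whose libraries overlapped in the uptake share. The 6 uptake genes made up 11.3 ± 2.92% of the sum in hepatoblasts, where efflux genes gave 22.4 ± 3.17 CPM per kb, most of it Abcc6 at 71.6% of the sum. In Diff. hepatocytes the uptake share was 83.5 ± 3.0%, of which Slc10a1 alone held 74.8% of the sum. In mature hepatocytes it was 83.3 ± 1.86%, with 36.5% of the sum from Slc10a1, 26.5% from Slco1b2 and 12.4% from Slco1a1. A like share thus rested mostly on 1 gene in culture and on several in the adult cells. RNA levels per length say nothing of protein or transport.

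**Figure D3:**
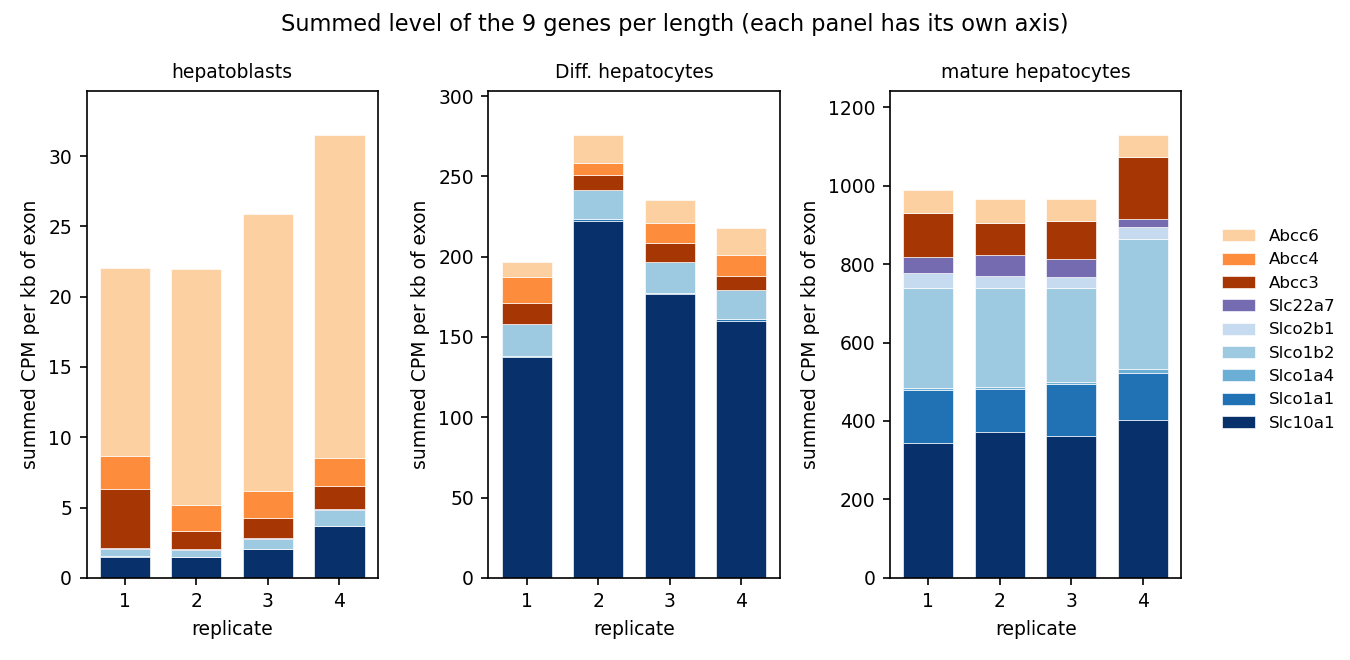
Summed CPM per kb of exon of the 9 genes in each library, stacked by gene with uptake genes in blue and purple and efflux genes in orange, each panel with its own axis from 0. The sums lie between 22.0 and 31.5 in hepatoblasts, mostly from Abcc6, between 197 and 276 in Diff. hepatocytes, mostly from Slc10a1, and between 965 and 1129.6 in mature hepatocytes, from several genes.

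The other members of 3 of the families were counted next, as were other lists, beside the medians and the shares over all tested genes given above. A listed gene with 10 counts or fewer in every library of a group had to be higher elsewhere to be tested, so its calls against that group are a description, as for Slco4c1, Slco4a1 and Slc7a11 in mature hepatocytes and Abcc12 and Gsta1 in hepatoblasts. Of the 11 other SLCO genes 4 were tested, and Slco4c1, Slco3a1 and Slco2a1 rose in Diff. hepatocytes against hepatoblasts (median log2 fold change 2.56). In mature hepatocytes Slco2a1, the prostaglandin transporter, was higher and Slco4c1 and Slco4a1 lower than in hepatoblasts (median -0.56), and Slco4c1 and Slco3a1 were higher in Diff. than in mature hepatocytes (median 1.40). Slco4c1, known as a carrier of kidney, was at 2.78 ± 0.747 CPM in the hepatoblasts, 30.5 ± 6.67 CPM in Diff. hepatocytes and 0 counts in each mature library. Slco2a1 was at 39.0 ± 6.08 CPM in hepatoblasts, at 219.8 ± 49.9 CPM in Diff. hepatocytes and at 184 ± 28.4 CPM in mature hepatocytes.

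Of the 6 other SLC10 genes 5 were tested, with 1 higher in Diff. hepatocytes than in hepatoblasts, Slc10a6, a carrier of steroid sulfates (median log2 fold change 0.26, or 0.23 over 4 with genes at the limit of detection set to their bound or left out). It had 0 counts in hepatoblasts, a mean of 3.47 ± 0.539 CPM in Diff. hepatocytes and at most 1 count in a mature library. Slc10a2, the ileal bile acid carrier, was at 3 counts or fewer in every library of hepatoblasts and Diff. hepatocytes and at 30.8 ± 4.16 CPM in mature hepatocytes. Slc10a5 was at 12.8 ± 3.49 CPM in hepatoblasts, at 9.93 ± 1.66 CPM in Diff. hepatocytes and at 71.0 ± 12.0 CPM in mature hepatocytes. Slc10a2 and Slc10a5 were thus higher in mature hepatocytes than in hepatoblasts (median of the 5 genes 2.47, or 1.203 over 4 with bounds) and lower in Diff. than in mature hepatocytes, where Slc10a6 was higher (median -0.014). Slc10a6 passed the filter through Diff. hepatocytes alone and Slc10a2 through mature hepatocytes alone, so each had to be high there to be tested and its calls are a description.

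Of the 8 other ABCC genes 7 were tested, with Abcc12 higher and Abcc9 lower in Diff. hepatocytes than in hepatoblasts (median log2 fold change 0.26). In mature hepatocytes Abcc12 and Abcc2 were higher and Abcc8, Abcc5, Abcc1 and Abcc9 lower than in hepatoblasts (median -2.14). In Diff. against mature hepatocytes Abcc8, Abcc5 and Abcc1 were higher and Abcc2 was lower (median -0.24). Abcc8 passed the filter through hepatoblasts alone, with at most 21 counts there and 5 in a Diff. library, so its calls are a description. Abcc5, a pump of cyclic nucleotides like Abcc4, was at 70.4 ± 4.19 CPM in hepatoblasts, at 84.0 ± 14.0 CPM in Diff. hepatocytes and at 4.38 ± 0.991 CPM in mature hepatocytes. Abcc1, the gene for Mrp1, was at 6.61 ± 4.84 CPM in hepatoblasts, at 13.0 ± 3.21 CPM in Diff. hepatocytes and at 1.43 ± 0.286 CPM in mature hepatocytes. Abcc1 was also highest in hepatoblast replicate 1, at 13.8 CPM, as Abcc3 was. Abcc4, Abcc5 and Abcc1 were thus 3 pumps of this family that were lower in mature than in Diff. hepatocytes.

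Further carriers of the basolateral membrane, for glucose, amino acids, fatty acids and others, numbered 15, of which 14 were tested. In Diff. hepatocytes 8 were higher than in hepatoblasts, in mature hepatocytes 10 were higher and 1 lower, and in Diff. against mature hepatocytes 6 were lower and 1 higher (median log2 fold changes 1.17, 2.14 and -0.87). The higher genes of the first 2 counts include 1 that passed the filter through Diff. hepatocytes alone, with at most 12 counts in a library. Slc38a3, a glutamine carrier, was at 63.8 ± 20.04 CPM in hepatoblasts, at 588 ± 73.0 CPM in Diff. hepatocytes and at 2461 ± 532 CPM in mature hepatocytes. Slc27a5, a bile acid and fatty acid ligase also listed with bile acid synthesis, was at 33.4 ± 8.79 CPM in hepatoblasts, at 122 ± 27.9 CPM in Diff. hepatocytes and at 1406 ± 153 CPM in mature hepatocytes. The gene that went the other way was Slc16a1, a lactate carrier, at 199 ± 16.1 CPM in hepatoblasts, at 158 ± 10.9 CPM in Diff. hepatocytes and at 78.5 ± 24.3 CPM in mature hepatocytes. It was lower in mature hepatocytes than in hepatoblasts and higher in Diff. than in mature hepatocytes, as Abcc4 was.

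At the canalicular membrane, where bile leaves the cell, 10 of 10 exporters were tested. Of these 6 were higher in Diff. hepatocytes than in hepatoblasts, 8 were higher and 1, Abcb1a, lower in mature hepatocytes than in hepatoblasts, and in Diff. against mature hepatocytes Abcb1a and Abcb1b were higher and Slc47a1, Abcg2, Abcc2 and Abcg8 lower (median log2 fold changes 2.28, 2.07 and -0.89). Abcb1a and Abcb1b, the genes for the drug pump P-glycoprotein, were thus above their mature level in culture, as Abcc4 was. Abcb1a was at 10.5 ± 1.93 CPM in hepatoblasts, at 36.2 ± 2.37 CPM in Diff. hepatocytes and at 2.90 ± 1.74 CPM in mature hepatocytes. Abcb1b was at 0.871, 0.299, 0.291 and 0.199 CPM in hepatoblasts, highest in replicate 1, at 23.5 ± 6.74 CPM in Diff. hepatocytes and at 2.06 ± 0.703 CPM in mature hepatocytes. Abcg5, of the sterol exporter, was at 0.995 ± 0.336 CPM in hepatoblasts, at 68.0 ± 16.9 CPM in Diff. hepatocytes and at 121 ± 35.1 CPM in mature hepatocytes.

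Of 11 genes of bile acid synthesis and conjugation, which make the substrates of several of the carriers, 10 were tested. In Diff. hepatocytes 7 were higher than in hepatoblasts, in mature hepatocytes 10 were higher, and in Diff. against mature hepatocytes 8 were lower (median log2 fold changes 2.48, 5.94 and -2.67). Baat, the conjugating enzyme, was at 81.2 CPM in Diff. hepatocytes against 2.29 CPM in hepatoblasts and 326 CPM in mature hepatocytes. Cyp7b1, an oxysterol hydroxylase, was at 0.604 ± 0.114 CPM in hepatoblasts, at 0.676 ± 0.219 CPM in Diff. hepatocytes and at 544 ± 198 CPM in mature hepatocytes, with a pattern like that of Slc22a7.

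A list of 22 regulators held transcription factors known to act on these transporter genes and Keap1, the adaptor that marks Nrf2 for degradation, and 22 of 22 were tested, with 10 higher and 1, Stat5b, lower in Diff. hepatocytes than in hepatoblasts, 14 higher in mature hepatocytes than in hepatoblasts, and 8 lower in Diff. than in mature hepatocytes (median log2 fold changes 0.633, 1.497 and -0.924). Nr1h4, the bile acid receptor Fxr, was at 8.25 ± 2.34 CPM in hepatoblasts, at 50.3 ± 4.47 CPM in Diff. hepatocytes and at 185 ± 26.7 CPM in mature hepatocytes. Nr1i3, the receptor Car, was at 0.824 ± 0.182 CPM in hepatoblasts, at 5.18 ± 1.09 CPM in Diff. hepatocytes and at 50.2 ± 13.9 CPM in mature hepatocytes. Cebpa was at 150 ± 34.2 CPM in hepatoblasts, at 113 ± 7.00 CPM in Diff. hepatocytes and at 797 ± 175 CPM in mature hepatocytes, an order of groups like that of Abcc6.

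Nrf2, a stress-response factor, is known to raise Abcc3 and Abcc4, and 8 of 8 of its target genes were tested. In Diff. hepatocytes Gsta1, with 0 counts in each hepatoblast library, and Slc7a11, Srxn1, Gclc and Nqo1 were higher and Hmox1 was lower than in hepatoblasts (median log2 fold change 1.97). In mature hepatocytes Gsta1, Gclc, Srxn1, Nqo1 and Gclm were higher and Slc7a11 and Hmox1 lower than in hepatoblasts (median 1.61), and in Diff. against mature hepatocytes Slc7a11 and Hmox1 were higher and Gclc and Gclm lower (median -0.26). Slc7a11, the cystine carrier, was at 2.03, 0.418, 0.550 and 0.265 CPM in the hepatoblasts, highest in replicate 1 as Abcc3 was. It reached 33.9 ± 5.24 CPM in Diff. hepatocytes and had 1 count in each mature library. Hmox1 was at 121 ± 22.7 CPM in hepatoblasts, at 32.7 ± 9.89 CPM in Diff. hepatocytes and at 13.9 ± 3.94 CPM in mature hepatocytes. The mean of Slc7a11 was highest in Diff. hepatocytes, where Abcc4 was highest. Srxn1 was at 65.1 ± 10.8 CPM in Diff. and 56.5 ± 13.5 CPM in mature hepatocytes, and Nqo1 at 8.32 ± 2.20 and 8.22 ± 2.59 CPM. Neither was called between these groups. The means of Gclc, Gclm, Gsta1 and Txnrd1 were highest in mature hepatocytes, where Abcc4 was lowest, with Gsta1 and Txnrd1 not called against Diff. hepatocytes. The part of Nrf2 in the Abcc3 and Abcc4 levels was not tested.

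Scaffold proteins hold Mrp pumps at the membrane, and 6 of 6 of their genes were tested. In Diff. hepatocytes 1 of the 6, Pdzk1ip1, was higher than in hepatoblasts, beside 14.9% of all tested genes. In mature hepatocytes 1, Pdzk1ip1, was higher than in hepatoblasts and 1, Ezr, lower, beside 20.1% and 24.7%. In Diff. against mature hepatocytes 3, Ezr, Pdzk1ip1 and Msn, were higher and 1, Slc9a3r1, was lower, beside 20.2% and 15.6% (median log2 fold changes -0.20, 0.46 and 0.71). Ezr, the gene for ezrin, was at 109 ± 9.62 CPM in hepatoblasts, at 87.9 ± 32.8 CPM in Diff. hepatocytes and at 5.87 ± 1.03 CPM in mature hepatocytes.

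For each transporter gene the most similar of 13153 genes were sought by the root-mean-square (RMS) difference of centred log2 CPM over the 12 libraries, as a description only. Abcc6 had the closest match, Gckr, the regulator of glucokinase, at an RMS difference of 0.095, followed by Slc47a1 at 0.129 and Pxmp2 at 0.14. Gckr was at 77.8 CPM in hepatoblasts, at 57.7 CPM in Diff. hepatocytes and at 234 CPM in mature hepatocytes. Nearest to Slc10a1 was the canalicular gene Abcg5 at 0.361, before Cfhr2 at 0.41 and Lims2 at 0.432. Nearest to Slco1b2 was Pck1, the key enzyme of gluconeogenesis, at 0.384, with 16.7, 436 and 4430.2 CPM in the 3 groups, before Gm4788 at 0.407 and Rdh7 at 0.439. Slco1a1 was most like Cyp2f2 (0.56), Acsm5 (0.782) and Ces1b (0.786). Slco1a4 was most like Lrit1 (0.559), Iigp1 (0.603) and Cyp2c38 (0.628). Among the genes most like Slco2b1 were Slc22a30 (0.673), of the family of Slc22a7, and Ido2 (0.727). Slc22a7 was most like Cyp7b1 (0.44), Mup1 (0.455) and Hsd3b5 (0.489). Abcc3 was most like Ttc39b (0.296), Il1rap (0.371) and Ildr2 (0.421). Abcc4 was most like Kdelr3 (0.306), Chrnb1 (0.311) and Clca3a1 (0.34), and Kdelr3, a receptor that returns proteins to the endoplasmic reticulum, was at 2.65, 18.9 and 0.818 CPM in the 3 groups. Among the 9 genes the closest pair was Slco2b1 with Slc22a7, at an RMS difference of 1.089, then Slc10a1 with Slco1b2 at 1.14. The most distant pair was Abcc4 with Slc22a7, at 6.112. Slco1a4, Slco2b1 and Slc22a7 were near the limit of detection in hepatoblasts and Diff. hepatocytes. Much of their log2 CPM there is set by the prior count of 2, and their RMS differences depend on it.

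Promoter windows of 300 bases, 250 before and 50 after a start, were held by the RefSeq table of build GRCm38.p6 for 6 of the 9 genes, with 10 windows, and not for Slc22a7, Abcc3 and Abcc6. Each was searched on both strands for the HNF1 half-site GTTAAT, the HNF4 motif CAAAGTCCA, the nuclear receptor half-site AGGTCA, the C/EBP motif TTGCNNAA, the antioxidant response element core TGACNNNGC and the xenobiotic response element core GCGTG. Over all 32851 windows these letters were present in 7.10%, 0.475%, 16.3%, 10.8%, 12.4% and 32.4%. The windows at the start of Slco1b2, Slco1a1 and Abcc4 are shown, with matches in capitals and positions counted from the start to the first letter shown. Among the start windows these are the ones that hold a match. Slco1b2 and Slco1a1 rose toward the mature state from the same cluster, as did Slco1a4, whose start window holds no match. Abcc4 fell below its hepatoblast level in mature hepatocytes. Slco1b2 (chr6:141629268-141629567, forward strand, GC content 35.3%) holds the nuclear receptor half-site on the opposite strand, as TGACCT, at position -81 from the start, and GTTAAT at position -66. Slco1a1 (chr6:141946913-141947212, reverse strand, GC content 42%) holds that half-site on the opposite strand at position -134 and as AGGTCA at position -24. Abcc4 (chr14:118706170-118706469, reverse strand, GC content 72.7% beside a median of 52.67% over all windows) holds matches on the opposite strand only, C/EBP as TTCGGCAA at position -233, the xenobiotic response element core as CACGC at positions -101 and -94, and the antioxidant response element core as GCGGGGTCA at position -25. No matches overlap.
Slco1b2: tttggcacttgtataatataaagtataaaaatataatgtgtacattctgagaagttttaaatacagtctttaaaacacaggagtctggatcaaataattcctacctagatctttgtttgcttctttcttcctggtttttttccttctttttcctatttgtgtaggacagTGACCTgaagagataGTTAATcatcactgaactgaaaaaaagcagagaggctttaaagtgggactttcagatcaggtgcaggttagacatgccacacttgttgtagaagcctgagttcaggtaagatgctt
Slco1a1: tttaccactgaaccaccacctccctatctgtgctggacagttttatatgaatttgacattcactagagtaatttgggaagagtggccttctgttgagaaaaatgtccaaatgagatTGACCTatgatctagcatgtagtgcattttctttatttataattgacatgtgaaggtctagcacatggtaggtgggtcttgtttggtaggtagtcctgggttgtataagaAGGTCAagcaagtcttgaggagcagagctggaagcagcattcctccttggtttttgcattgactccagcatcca
Abcc4: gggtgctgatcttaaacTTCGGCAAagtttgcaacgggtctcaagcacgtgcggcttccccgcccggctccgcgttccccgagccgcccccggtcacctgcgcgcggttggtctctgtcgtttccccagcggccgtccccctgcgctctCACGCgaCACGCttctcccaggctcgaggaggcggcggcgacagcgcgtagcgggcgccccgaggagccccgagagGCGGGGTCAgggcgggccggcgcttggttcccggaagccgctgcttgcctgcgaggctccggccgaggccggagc
The windows at the starts of Slc10a1, Slco1a4 and Slco2b1 hold none of these 6 sets of letters, which says only that the letters are not in those windows. A second window of Slc10a1, 626 bases downstream of the first, holds AGGTCA and 2 matches of the C/EBP motif, and a second window of Abcc4, 29288 bases downstream, holds 1 antioxidant response element core. The matches are a description of the letters, and binding was not measured.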

How the data were processed

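RNA of 12 libraries of hepatoblasts, Diff. hepatocytes and mature hepatocytes was sequenced by the study in single reads of 75 bases from poly(A) RNA with a kit that keeps the strand. The authors deposited raw counts per gene, and their processing notes name FastQC 0.11.2, STAR 2.5.2b, Picard 2.10.2 and DESeq2 1.22.2 with build GRCm38. The strand setting of the counting and any removal of duplicate reads are not stated. Of the 53715 listed genes 21338 were at 0 in all 12 libraries, and 53620 were found in GENCODE release M21, which gave symbols, positions and exon lengths. Libraries were grouped by their labels, and pairs of replicates differed beyond counting error (chi-square per gene between 6.43 and 99.2), so errors are those between replicates. The tools were edgeR 4.0.16 on R 4.3.3, DESeq2 1.42.0 and limma 3.58.1. A gene entered the fit if its count exceeded 10 in at least 1 library. TMM set the library sizes, log2 CPM used a prior count of 2, and edgeR's quasi-likelihood fit took in the 12 libraries with group as its only term. The code was tested on simulated data.

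Tried as alternatives were the Wald test of DESeq2, tests that hold the fold threshold themselves (DESeq2, glmTreat), 3 other scalings, 3 other filters, fits of the 8 libraries compared, a replicate block, a call by adjusted p under 0.05 alone, each library left out in turn, and, chosen after seeing the data, another gene length. No batch is named by the labels. The 9 genes and the lists of related genes and markers were chosen with earlier results of these data known. The genes named are the 9 transporters, up to 4 called genes with the largest absolute log2 fold change per list and comparison at a mean of at least 1 CPM, the genes of the Slco1 cluster, the called genes of a list where they number 5 or fewer, and the 3 genes most like each transporter. A gene these rules would name, and the counts of the SLC22 list, are not reported here. Which of these are given with values in full was chosen after the values were seen. So were Dlk1, Alb, Cyp2e1, Ttr, Apob, Alas2, Clec4f, Lrat and Spp1 among the markers.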

Additional observations from a re-analysis of the deposited data

Results flagged for a closer look

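In 8 of 57 groups of 4 libraries, 1 library lay so far from the other 3 that its gap to the nearest, as a share of the range of the group, exceeded Dixon's 95% critical value. By chance about 1 in 20 groups, here 2.85 of 57, would be set apart if groups were independent and values normally distributed. These groups share libraries, and the summed level of the transporter genes reuses the values of each gene. A group with counts in only 1 library is set apart whatever the value. The 8 groups therefore cannot be compared with 2.85 to judge chance. The values below are given with no explanation.

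Hepatoblast replicate 1 was far above the other hepatoblasts for Abcc3 (24.0 CPM), for the summed erythroid markers (2804 CPM), for the summed macrophage markers (405 CPM) and for the summed neutrophil and mast cell markers (418 CPM). Mature replicate 4 was far above the other mature libraries for Slco1a4 (74.3 CPM) and for the summed level of the 9 genes (1129.6 CPM per kb). The remaining values rest on very few counts. Hepatoblast replicate 2 was the hepatoblast library with counts of Slco1a4 (0.0597 CPM, 2 counts), and Diff. replicate 4 was the Diff. library with a count of Slc22a7 (0.0493 CPM, 1 count).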

How the results depend on the processing

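No result changed direction under any alternative, and for single genes 614 alternative values kept their side of the threshold, 5 passed it anew and 16 no longer passed it. The numbers of all genes called were 5145 for Diff. hepatocytes against hepatoblasts, 7971 for mature hepatocytes against hepatoblasts and 6362 for Diff. against mature hepatocytes. With the fold change threshold in DESeq2's test they were 2504, 4923 and 3528, with glmTreat 2966 in the first and 4221 in the last comparison, with at least 10 counts in every sample 2634, 4379 and 3107, and by an adjusted p under 0.05 alone 10615, 12870 and 11580. With at least 10 counts in every sample, 4 transporter genes in place of 6 were higher in Diff. hepatocytes than in hepatoblasts, 4 in place of 8 were higher in mature hepatocytes than in hepatoblasts and 3 in place of 8 were lower in Diff. than in mature hepatocytes. Slco1a1, Slco1a4, Slco2b1 and Slc22a7 did not pass that filter, and Slc10a1 passed it but lost its call in Diff. against mature hepatocytes (-0.98). Without 1 library at a time the counts of all genes ranged over 4704 to 5170, 7621 to 7967 and 6027 to 6532. The transporter genes higher in Diff. hepatocytes than in hepatoblasts then ranged from 5 to 7 (0 lower), in mature hepatocytes 8 were higher and 1 lower each time, and in Diff. against mature hepatocytes 1 was higher and 7 to 8 lower. Under library totals 35.4%, 20.2% and 75.6% of the called genes were higher in the 3 comparisons, and under totals without the 50 most abundant genes 46.0%, 24.5% and 76.5%, beside 51.5%, 44.9% and 56.4% under TMM. With a replicate block the counts of all genes were 5220, 7988 and 6359 and no transporter gene changed its call (6 higher and 0 lower, 8 and 1, 1 and 8). Libraries that share a number correlated by -0.081 to 0.324 in their deviations, and 5 of 12 correlated best with their own number. For Diff. hepatocytes against hepatoblasts these correlations were 0.324, -0.0589, 0.246 and 0.184 for replicates 1 to 4, with replicates 1, 3 and 4 best with their own number. Since the pair of replicate 2 did not deviate together and the labels name no pairing, the libraries were not treated as paired, and the values for the other pairs remain a hint from the data. A call by adjusted p under 0.05 alone also took Slco2b1 as higher in Diff. hepatocytes than in hepatoblasts (1.92). Log2 fold changes ranged from 2.25 to 2.75 for Abcc4 and from 6.03 to 6.70 for Slc10a1 in Diff. hepatocytes against hepatoblasts. Slco1a4, Slco2b1 and Slc22a7 had 0 to 15 counts in a library of hepatoblasts or Diff. hepatocytes. The causes of these differences, depth among them, were not tested.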

Other observations

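Mature replicate 4 differed from the other mature libraries in more than 1 transporter gene, as was noticed after the values were seen. It had the highest levels of Slco1a4 (74.3 CPM against 20.3 to 28.7 CPM), Abcc3 (901 CPM against 455 to 629 CPM), Slco1b2 (1629 CPM against 1179.7 to 1265 CPM), Abcc4 (4.47 CPM against 2.37 to 3.09 CPM) and Slc10a1 (883 CPM against 754 to 818 CPM), and the highest sum of hepatocyte markers (171151 CPM against 122545 to 138404 CPM). It had the lowest level of Slc22a7 (42.1 CPM against 89.6 to 112 CPM), and also of Slc22a28 (8.94 CPM against 13.5 to 15.5 CPM), Slc22a30 (112 CPM against 153 to 179 CPM) and Cyp7b1 (373 CPM against 451 to 825 CPM). Its Slco1a1, Slco2b1 and Abcc6 levels lay within the span of the other 3 mature libraries.

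Hepatoblast replicate 1 had the highest hepatoblast levels of Abcc1 (13.8 CPM against 3.18 to 5.16 CPM), of the nucleoside carrier Slc29a1 (78.6 CPM against 23.1 to 26.0 CPM) and of the scaffold gene Msn (111 CPM against 26.5 to 36.5 CPM), beside Abcc3. These genes were chosen after their values were seen.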
